A study of Mus musculus with 8 samples.

Results

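The kinesin motor family was followed across 8 arrays of mouse embryonic stem (ES) cells, 4 from cells given 2.5 µM cisplatin for 8 h and 4 from cells given the solvent dimethyl sulfoxide for 8 h. Cisplatin is a platinum drug that crosslinks DNA. All 8 samples came from HPRT deficient ES cells of strain C57BL/6 at passages 19 to 22, grown on feeder cells and then on gelatin before treatment. Replicates are numbered 3 to 6 in either group. Nothing in the labels tells whether they were separate cultures, so the p-values reflect the spread among these samples alone, and part of it may be technical. The family was taken as every gene whose symbol is Kif or Kifc followed by a digit and for which the annotation used lists a probe set with that gene alone, each read by its brightest such probe set on average. This gave 39 genes of the 17098 tested. By lists from textbook knowledge they were sorted into 8 mitotic kinesins, 5 others with cell division roles, 15 transport kinesins and 11 remaining ones. Kif2a, which also acts at spindle poles, was placed among the remaining ones. The values are log2 expression levels made by the authors with RMA, a method that subtracts background, brings arrays to 1 distribution and combines the probes of each set.

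Kinesins are motor proteins that use ATP to move along microtubules or to shorten them. In dividing cells, mitotic kinesins build the spindle, move chromosomes and organise the midzone where the cell is cut apart, and their genes are transcribed mostly in G2 and mitosis. Many such genes carry close to their start a cell cycle homology region, the motif through which MuvB complexes hold them off until late in the cycle. Transport kinesins carry vesicles, mitochondria, RNA and ciliary parts, and several of them are best known from neurons. Mouse ES cells divide fast and spend little time in G1.

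Promoter sequences of division kinesins are shown first: 4 that fell and Kif18b, which rose, hold both of 2 motifs known from cell cycle genes, Kif20b holds 1 of them, and Kif18a, which fell, holds neither. They come from RefSeq on GRCm38.p6, whose table held a promoter for 31 of the 39 members (35 promoters, each reaching 250 bases before to 50 bases after the annotated start). Capitals mark the cell cycle homology region TTTGAA and the CCAAT box, in either orientation (TTCAAA and ATTGG on the shown strand). The first stretches cover the 75 bases before the start of Kif11 (chr19:37376307-37376381, plus strand), Kif22 (chr7:127042421-127042495, minus strand), Kif18a (chr2:109280663-109280737, plus strand) and Kif18b (chr11:102925125-102925199, minus strand).
Kif11: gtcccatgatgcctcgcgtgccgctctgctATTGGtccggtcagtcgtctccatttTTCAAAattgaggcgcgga
Kif22: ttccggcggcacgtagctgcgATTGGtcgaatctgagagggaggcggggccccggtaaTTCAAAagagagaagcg
Kif18a: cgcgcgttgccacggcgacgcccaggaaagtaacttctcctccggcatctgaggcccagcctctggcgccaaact
Kif18b: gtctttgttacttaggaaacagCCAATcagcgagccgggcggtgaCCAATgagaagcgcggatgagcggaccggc

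In 4 other windows of 30 bases the cell cycle homology region lies just after the annotated start. They belong to Kif4 (chrX:100626060-100626089, plus strand), Kif23 (chr9:61946777-61946806, minus strand), Kif20b (chr19:34922353-34922382, plus strand) and again Kif18b (chr11:102925100-102925129, minus strand).
Kif4: ATTGGctggcgcctctgggatcaaTTTGAA
Kif23: ATTGGcctgTTTGAAatgcgccgggcgggc
Kif20b: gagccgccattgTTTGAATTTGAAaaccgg
Kif18b: ccggctagTTTGAAcgcgccgcgccggaag

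The motif TTTGAA, searched on both strands within 50 bases either side of the start, was found in 5 of 7 promoters of mitotic kinesins (Kif4, Kif11, Kif15, Kif22 and Kif23) and in 2 of 5 of the other division kinesins (Kif18b and Kif20b). It was found in 1 of 12 promoters of transport kinesins (Kif1a) and in 1 of 11 of the remaining ones (Kif26b). Among 32851 promoters in all, 4.94% held it in that window. CCAAT in the same window was present in 3 of 7 mitotic, 2 of 5 other division, 1 of 12 transport and 0 of 11 remaining promoters. Its share of all promoters was 13.6%. The CCAAT box shown for Kif22 lies outside that window. In the whole 300 bases of a promoter, TTTGAA was found in 6 of 7 mitotic promoters and 17.9% of all. The other division, transport and remaining promoters held it in 3 of 5, 1 of 12 and 2 of 11. CCAAT was found there in 4 of 7 mitotic promoters and 37.4% of all. The other division promoters held CCAAT in 4 of 5, the transport ones in 4 of 12 and the remaining ones in 3 of 11. The motifs and windows were chosen with the expression changes known. A match is a description of these letters and no proof of a binding site.

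The arrays of a group correlated at 0.997 to 0.998 over all genes, and arrays of different groups at 0.992 to 0.995. Array background, read from the control probe set named as nonspecific with a GC count of 24, was 3.10 on the log2 scale. Neither the labels nor the files name a scan date or other batch. All 7 measured ES cell markers lay far above background, with array means of the list from 11.2 to 11.3 with cisplatin and from 11.4 to 11.5 in the controls, and 4 of them fell. Of markers of other cells, 3 of 12 for fibroblasts (feeder cells), 2 of 9 for neurons and 3 of 7 for multiciliated cells rose, and none fell, where 11.6% of all genes rose and 7.69% fell. Array means of the fibroblast list ran from 3.12 to 3.39 with cisplatin and from 3.10 to 3.25 in the controls. Of its 12 genes 8, among them Col1a2, Dcn, Lum and the called Fbln2, lay below background. Thy1 (0.61) and Mmp2 (0.60), both above background, were called higher. Col1a1 (-0.09) and Col3a1 (-0.06), above background as well, did not pass. Those of the neuronal list ran from 5.67 to 5.77 with cisplatin and from 5.48 to 5.72 in the controls, and those of the ciliated list from 4.10 to 4.28 with cisplatin and from 3.70 to 3.84 in the controls, with 2 genes of each list below background. The part of such cells in the results below was not tested. Hprt itself read 4.84 ± 0.16 with cisplatin and 4.60 ± 0.37 in the controls (SD, n = 4 each), and the files do not show which part of the gene is lost.

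Most mitotic kinesins were lower with cisplatin, while most transport kinesins did not pass the test. Of the 39 family members, 10 fell and 2 rose at an adjusted p under 0.05 (limma, Benjamini-Hochberg over all genes), where 7.69% of all genes fell and 11.6% rose. All 12 were among the 30 members above background in either group, and of all such genes 10.9% fell and 16.6% rose. Of the 8 mitotic kinesins 6 fell and none rose, with a median log2 change of -0.36. Of the 15 transport kinesins 2 fell and 1 rose, with a median of -0.02, and the median over all genes tested was 0.01. The transport median was -0.12 without control replicate 4, -0.079 without cisplatin replicate 4 and 0.023 without control replicate 6. The mitotic list was drawn up with results of these data known, so its count is a description. The values of the groups did not overlap for 14 of 39 members, 12 of them lower with cisplatin and 2 higher, where 24.3% of all genes did not overlap, 10.1% lower and 14.2% higher.

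**Figure D1:**
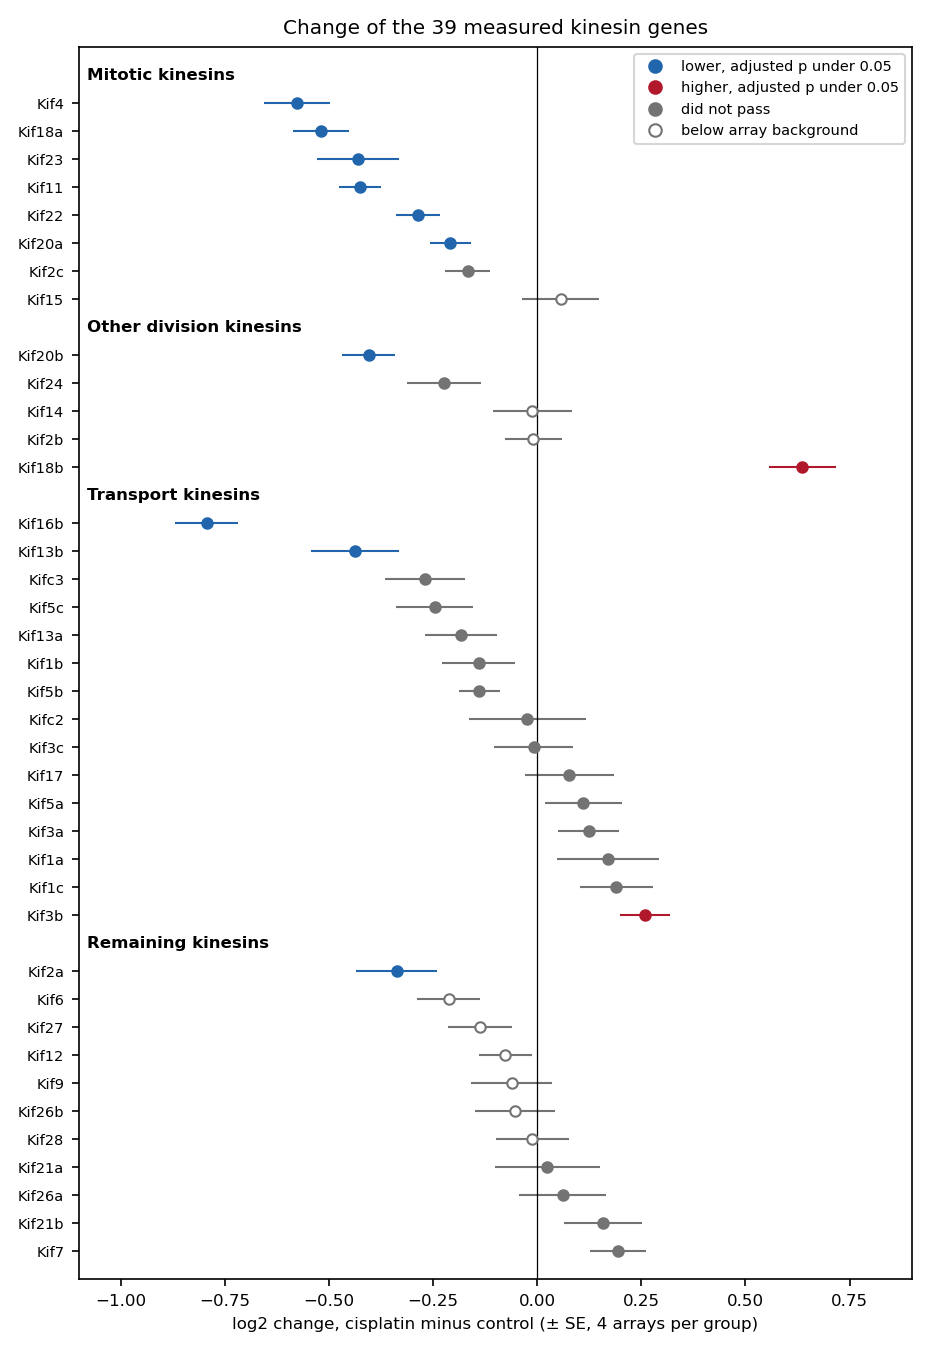
Log2 change with cisplatin relative to control for each of the 39 kinesin genes, by functional class, as the fitted change ± SE from 4 arrays per group; filled points lie above the array background of 3.10 and open points below it. Blue points (10 genes) were lower and red points (2 genes, Kif18b and Kif3b) higher at an adjusted p under 0.05, and grey points did not pass.

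The spindle motors come first. Kif11, the bipolar motor that pushes the spindle poles apart, read 8.40, 8.44, 8.36 and 8.43 on the cisplatin arrays of replicates 3 to 6, the order kept throughout, against 8.77, 8.88, 8.85 and 8.82 on the control arrays. Every cisplatin array lay below every control array, and the spread within a group was small beside the gap. Its fitted log2 change was -0.42 ± 0.05 (SE), a 1.34-fold lower level (limma adjusted p = 0.000346). A second probe set of the gene gave -0.51 ± 0.09 and passed. This and the other values of further probe sets come from a fit over all 28898 probe sets with a single gene, added after the data were seen, in which 7.69% of probe sets were lower and 8.60% higher.

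Kif15, a motor that can back up Kif11 on the spindle, was read by a single probe set that lay below background in both groups, at 2.99 ± 0.19 with cisplatin and 2.94 ± 0.09 in the controls (SD, n = 4 each). It therefore gives no usable level of this gene.

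Among motors of the chromosomes, Kif4, a chromokinesin of chromosome arms and the spindle midzone, read 6.94, 6.91, 6.78 and 6.83 with cisplatin, against 7.36, 7.56, 7.57 and 7.26 in the controls. The groups did not overlap, and the change of -0.58 ± 0.08 (adjusted p = 0.000769) was the largest decrease among the mitotic kinesins. Kif22, a chromokinesin that pushes chromosome arms away from the poles, read 9.31, 9.29, 9.34 and 9.30 with cisplatin and 9.64, 9.67, 9.56 and 9.52 in the controls. All 4 cisplatin values lay below the control values, with a change of -0.29 ± 0.05 (adjusted p = 0.00392), and its second probe set gave -0.34 ± 0.05.

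Kif18a, a kinesin-8 motor that damps chromosome movement at the metaphase plate, read 7.74, 7.62, 7.84 and 7.77 with cisplatin, against 8.29, 8.26, 8.36 and 8.13 in the controls. The gene fell by 0.52 ± 0.07 on the log2 scale (adjusted p = 0.000580), without overlap between the groups. Its second probe set lies below background, and the mean of both gave -0.29. Kif2c, which shortens microtubules at centromeres to correct wrong attachments, read 8.45, 8.48, 8.47 and 8.57 with cisplatin and 8.65, 8.70, 8.71 and 8.59 in the controls. Its groups did not overlap either, but the gap between cisplatin replicate 6 and control replicate 6 was narrow. The change of -0.17 ± 0.05 missed the threshold (adjusted p = 0.0580), and it passed when either of those arrays was left out (adjusted p = 0.0498 and 0.0456) or when genes below background were left out (adjusted p = 0.0326). Of the ES cell markers beside these genes, Esrrb fell by 0.55, Zfp42 by 0.34, Nanog by 0.25 and Utf1 by 0.22 on the log2 scale, and their part in the result was not tested.

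The motors of cell cutting belong to the kinesin-6 group. Kif20a, which carries the chromosomal passenger complex to the midzone, read 9.90, 9.89, 9.95 and 9.92 with cisplatin, against 10.16, 10.15, 10.11 and 10.07 in the controls. Kif23, which forms the centralspindlin complex with Racgap1, read 6.92, 6.79, 7.10 and 7.17 with cisplatin, against 7.60, 7.43, 7.40 and 7.26 in the controls. Both genes fell without overlap, Kif20a by little and evenly, Kif23 with a wider spread. Their changes were -0.21 ± 0.05 (adjusted p = 0.0137) and -0.43 ± 0.10 (adjusted p = 0.0125). By the ordinary t statistic Kif23 missed the threshold (adjusted p = 0.0519). Its second probe set lies below background, and the mean of both gave -0.24 for Kif23 and passed. Kif20b, the third kinesin-6 gene, also needed for the last step of division, was not among the 8 and read 9.81, 9.69, 9.67 and 9.83 with cisplatin, against 10.22, 10.17, 10.20 and 10.03 in the controls. It changed by -0.40 ± 0.06 (adjusted p = 0.00180), and its second probe set by -0.44 ± 0.11.

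Taking each array's median over the 8 mitotic kinesins, relative to the control mean of each gene, the cisplatin arrays lay between -0.36 and -0.27 and the control arrays between -0.10 and 0.03. The lowest control value was that of replicate 6, on which Kif4, Kif18a, Kif20a, Kif22, Kif23 and Kif2c were each at their lowest control level. In such bulk samples a smaller number of cells in G2 and mitosis and less RNA in each of these cells cannot be told apart.

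Kif18b went the other way. This second kinesin-8 gene, whose product shortens astral microtubules, read 8.29, 8.58, 8.47 and 8.24 with cisplatin, against 7.71, 7.85, 7.72 and 7.76 in the controls. Every cisplatin array lay above every control array. The change of 0.64 ± 0.08, a 1.55-fold higher level (adjusted p = 0.000493), was the largest increase of the family, and the gene passed the test under all 19 alternatives, with changes from 0.51 to 0.69. It rests on 1 probe set. Its relative Kif18a, above, fell by 0.52. The promoter of Kif18b holds TTTGAA and CCAAT, as do those of 4 mitotic genes that fell (Kif4, Kif11, Kif22 and Kif23). Neither motif was found in the 300 bases searched for Kif18a. Of all promoters 17.9% hold TTTGAA and 37.4% hold CCAAT in these bases.

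Of the other kinesins with division roles, Kif24, a microtubule-shortening motor of centrioles, was near background at 3.20 ± 0.18 with cisplatin and 3.42 ± 0.08 in the controls (SD, n = 4 each). Its change of -0.22 ± 0.09 did not pass (adjusted p = 0.116), though it did without cisplatin replicate 3 (-0.31, adjusted p = 0.0135). Kif14, a midbody motor, and Kif2b, a motor of the same group as Kif2c, were below background in both groups.

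**Figure D2:**
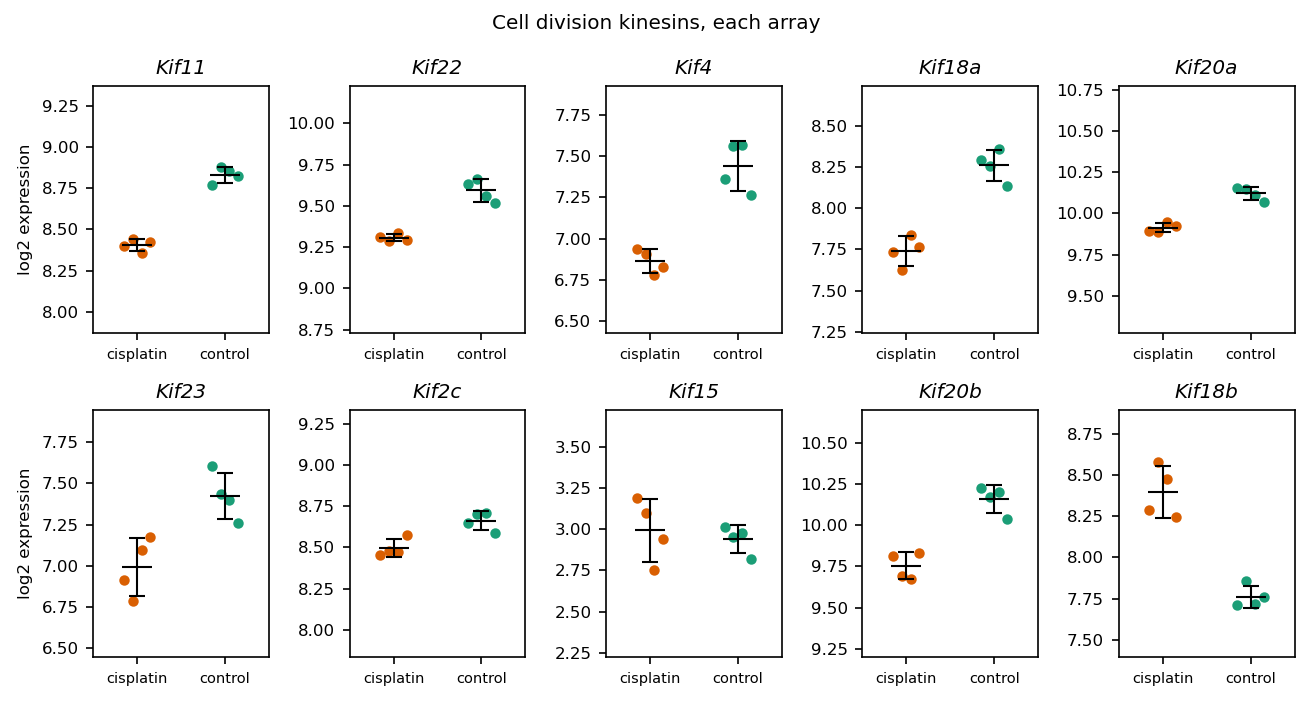
Log2 expression on each array for the 8 mitotic kinesins, Kif20b and Kif18b; points are the 4 arrays of a group, cisplatin left and control right, with the mean and SD in black, and every panel spans the same 1.5 log2 units. Kif11, Kif22, Kif4, Kif18a, Kif20a, Kif23, Kif2c and Kif20b lie lower with cisplatin without overlap, Kif18b lies higher, and Kif15 overlaps near 3.

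The transport kinesins all lay above background in at least 1 group, though Kifc2, Kif17, Kif1a and Kif1c only by little. Kinesin-1, the main carrier of vesicles and mitochondria, has 3 heavy chain genes. Kif5b, the form present in most tissues, read 10.02, 9.996, 9.93 and 10.01 with cisplatin, against 10.10, 10.14, 10.18 and 10.09 in the controls. These values did not overlap, but the change of -0.14 ± 0.05 by the brightest of 5 probe sets missed the threshold (adjusted p = 0.0834). The 4 others gave -0.21 ± 0.06, -0.22 ± 0.07, -0.24 ± 0.07 and -0.34 ± 0.08. Of these 3 passed, and all 5 had negative changes. The probe set used also passed without genes below background (adjusted p = 0.0434), with an intensity trend in the variance (0.0119), by the ordinary t statistic (0.0246) and after centring (0.00654). Kif5c, a neuronal form, was at -0.25 ± 0.09 (adjusted p = 0.0969), with a second probe set at -0.31 ± 0.06 that passed (adjusted p = 0.00474). Kif5c also passed without cisplatin replicate 3 (adjusted p = 0.0265). Kif5a, another neuronal form, was at 0.11 ± 0.09 (adjusted p = 0.479).

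Kinesin-2 motors build and supply cilia. Kif3b, which pairs with Kif3a in the main ciliary motor, read 5.78, 5.89, 6.00 and 5.90 with cisplatin, against 5.66, 5.60, 5.59 and 5.68 in the controls. All cisplatin values were higher, at 0.26 ± 0.06 (adjusted p = 0.0129). The increase passed by the brightest probe set alone: the 3 others gave -0.04 ± 0.10, 0.04 ± 0.08 and 0.18 ± 0.07 and did not pass. The call was lost after averaging all 4 (0.11, adjusted p = 0.215) and after centring the arrays (0.13, adjusted p = 0.120). It was also lost after quantile normalization again (0.16, adjusted p = 0.0858) and at the stricter threshold of 0.01. Among ciliated cell markers Dnaic1 rose by 1.91, Foxj1 by 0.44 and Ccdc39 by 0.32, and Dnah5 and Dnah9 were below background. Foxj1 and Ccdc39 lay near background, at 3.15 and 3.39 in the controls. Tekt1 (0.25) and Rsph1 (-0.11), both above background, did not pass. The part of these markers in the result was not tested. Kif3a was at 0.12 ± 0.07, Kif3c at -0.01 ± 0.09 and Kif17 at 0.08 ± 0.11, with overlapping groups and adjusted p-values of 0.295, 0.967 and 0.692. Kifap3, the adaptor that joins the Kif3a and Kif3b pair to cargo, was at -0.08 ± 0.06 (adjusted p = 0.390).

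Kinesin-3 motors move vesicles along long tracks, and here the largest decrease of the family was found. Kif16b, which carries early endosomes, read 5.86, 5.71, 5.53 and 5.56 with cisplatin, against 6.41, 6.48, 6.48 and 6.46 in the controls. The control values lay close together and well above all cisplatin values. The change was -0.79 ± 0.08, a 1.73-fold lower level (adjusted p = 0.000101), and its other probe set gave -0.74 ± 0.08.

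Kif13b, a motor of vesicles bound for the plasma membrane, read 5.94, 5.90, 5.62 and 5.53 with cisplatin, against 6.10, 6.26, 6.03 and 6.33 in the controls. The groups were next to each other without overlap, and the change was -0.44 ± 0.11 (adjusted p = 0.0163). A dimmer probe set of Kif13b gave -0.41 ± 0.09, while without cisplatin replicate 5 the gene missed the threshold (-0.40, adjusted p = 0.0501), as it did by the ordinary t statistic (adjusted p = 0.0643). The mean of its 4 probe sets, 2 of them below background, gave -0.21 and passed. Kif13a, Kif1b, Kif1a and Kif1c were at -0.18 ± 0.09, -0.14 ± 0.09, 0.17 ± 0.12 and 0.19 ± 0.09, with adjusted p-values from 0.170 to 0.404. Kif1c, a motor of vesicles between Golgi and endoplasmic reticulum, lay close to background, and its second probe set, at 0.46 ± 0.14, did not pass in the fit over all probe sets (adjusted p = 0.0508). Kif1c did pass in gene-level fits that took the most variable probe set of each gene (adjusted p = 0.0468) or the mean of its probe sets (0.33, adjusted p = 0.0257). The minus-end directed motor genes Kifc3 and Kifc2 were at -0.27 ± 0.10 (adjusted p = 0.0821) and -0.02 ± 0.14 (adjusted p = 0.936).

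**Figure D3:**
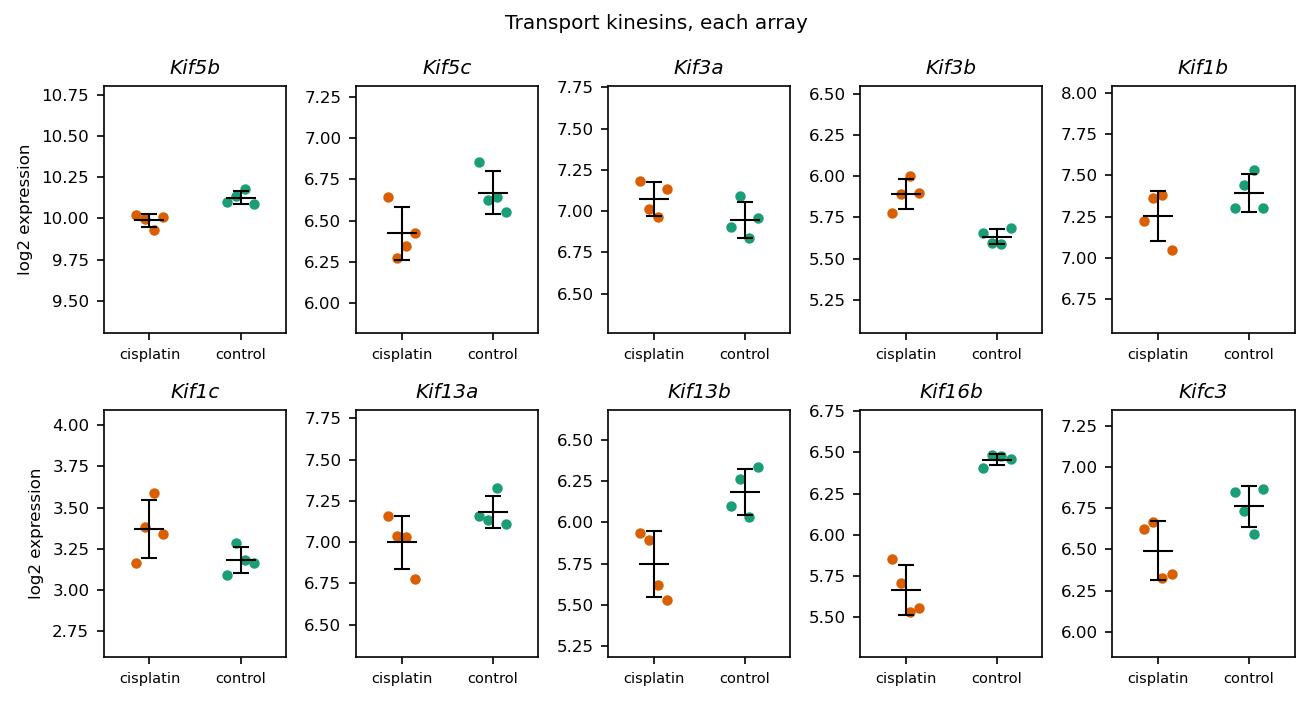
Log2 expression on each array for 10 transport kinesins, drawn as 4 points per group with mean and SD in black, cisplatin left and control right, and 1.5 log2 units in every panel. Kif16b, Kif13b and Kif5b lie lower with cisplatin without overlap and Kif3b higher, while the groups overlap for Kif5c, Kif3a, Kif1b, Kif1c, Kif13a and Kifc3.

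Of the 11 remaining kinesins only Kif2a passed the test. Kif2a, which shortens microtubules at spindle poles and in growing axons, read 8.23, 8.15, 7.97 and 8.18 with cisplatin, against 8.46, 8.34, 8.35 and 8.74 in the controls. Control replicate 6 stood above the other controls, and the change was -0.34 ± 0.10 (adjusted p = 0.0349). All 4 of its probe sets above background had negative changes, from -0.34 to -0.11, and 2 of them passed. Leaving out any of 5 arrays ended this call: cisplatin replicate 4 (adjusted p = 0.0670), 5 (0.0931) or 6 (0.0597), and control replicate 3 (0.0717) or 6 (0.0526). It was also lost for the mean of its probe sets (-0.17, adjusted p = 0.0644) and by the ordinary t statistic (adjusted p = 0.0962).

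Kif7, a ciliary tip regulator of Hedgehog signalling, was at 0.19 ± 0.07 (adjusted p = 0.0737) and passed without control replicate 6 (0.23, adjusted p = 0.0405). Kif21b and Kif21a, which restrain microtubule growth, were at 0.16 ± 0.09 and 0.02 ± 0.13, and Kif26a, which lacks the usual motor activity, at 0.06 ± 0.10. The other 6 genes (Kif6, Kif9, Kif12, Kif26b, Kif27 and Kif28) lay below background in both groups, with adjusted p-values from 0.0804 to 0.948. Kif6, Kif9 and Kif27 are known from cilia.

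**Figure D4:**
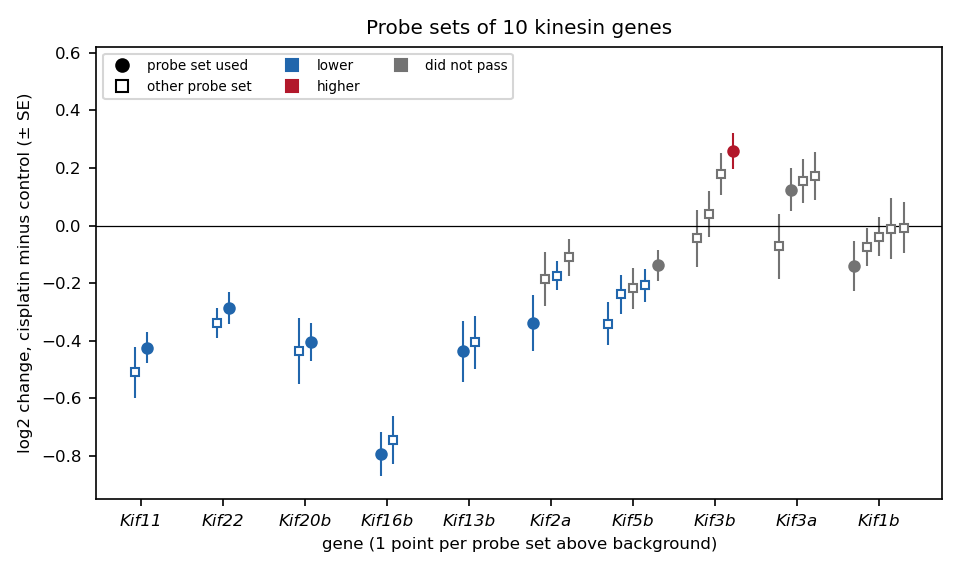
Log2 change ± SE with cisplatin relative to control for each probe set above background of 10 kinesin genes, fitted over all probe sets with a single gene; circles are the probe sets used for the gene and squares the others, blue lower, red higher and grey not passing. Both probe sets of Kif11, Kif22, Kif20b, Kif16b and Kif13b were lower, all 5 of Kif5b lay below 0, and only the used probe set of Kif3b was higher.

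Changes of the family also went with gene length, which the choice of members did not use, and so did those of all genes. The 6 transport kinesins over 100 kb in the RefSeq table (Kif16b, Kif13a, Kif13b, Kif5c, Kif1b and Kifc3) all had negative changes, from -0.79 to -0.14 with a median of -0.26, and 2 passed. The 9 of up to 100 kb ranged from -0.14 to 0.26 with a median of 0.11, and 1 passed. Of all genes over 100 kb 26.9% fell and 3.58% rose, with a median change of -0.09, or -0.20 for those above background. Of all genes up to 100 kb 4.96% fell and 12.9% rose, with a median of 0.03, or 0.05 above background. The counts of called transport kinesins of either length were near these shares. Kif16b spans 283 kb and Kif13b 157 kb. Of the mitotic kinesins only Kif4 (-0.58), at 101 kb, was over that length. Of the others above background, Kif18a (-0.52), Kif11 (-0.42) and Kif23 (-0.43) span 61.0, 45.5 and 29.5 kb. The shorter Kif2c (-0.17, not passing), Kif22 (-0.29) and Kif20a (-0.21) span 23.0, 14.7 and 8.65 kb. The part of length in these changes was not tested. Over the 30 members above background, Spearman's correlation of length with change was -0.41, and -0.35 without Kif16b. The points share the same arrays and are not independent.

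**Figure D5:**
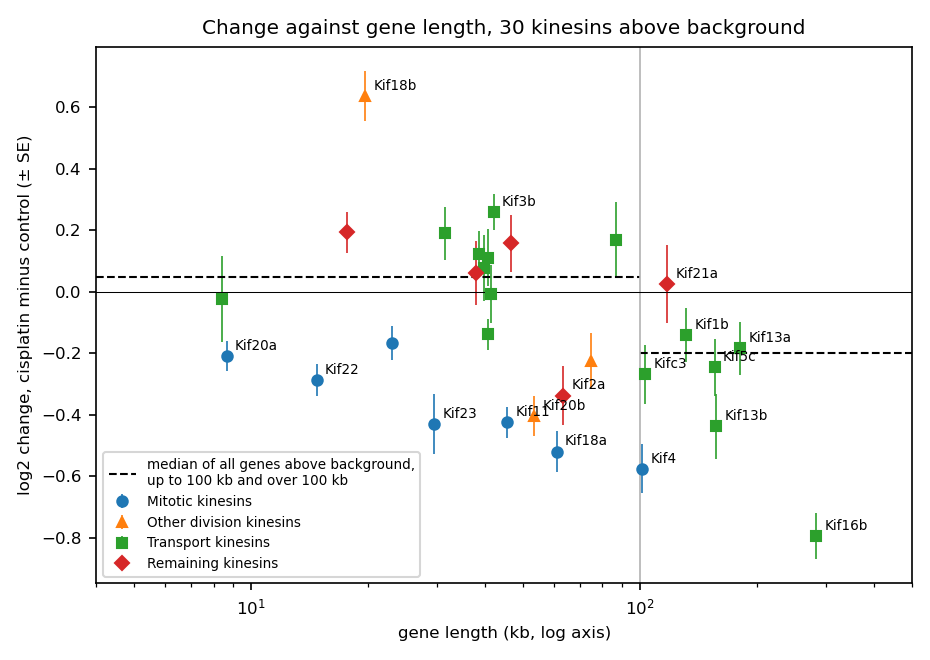
Log2 change ± SE with cisplatin relative to control against gene length in kb (log axis) for the 30 kinesins above background, with symbols by class and names for called or long genes; dashed lines are the medians of all genes above background up to and over 100 kb. Transport kinesins over 100 kb lie below 0, and so do all mitotic kinesins shown.

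The partners of these motors were read from lists of textbook genes. Of 20 spindle partners measured, 16 fell and none rose, with a median of -0.34, where 7.69% of all genes fell and 10.9% of those above background. Plk1, a kinase of spindle and midzone, was lowest at -0.77 ± 0.05. Next by p-value came the kinase gene Aurka at -0.50 ± 0.05, Ect2, which starts the cleavage furrow, at -0.60 ± 0.06, and Racgap1, the centralspindlin partner of Kif23, at -0.49 ± 0.06. Cenpe, the kinetochore kinesin whose symbol keeps it out of the family count, fell by 0.38 ± 0.05 on the log2 scale (adjusted p = 0.000676). The 4 partners that did not pass were Aurkb (0.14 ± 0.06), Birc5 (-0.06 ± 0.05), Sgo1 (-0.08 ± 0.05) and Mapre1 (0.11 ± 0.05).

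Of 16 kinesin light chains, adaptors and cargo linkers, 2 rose and 1 fell, shares near the 11.6% and 7.69% of all genes that rose and fell. Fez1, an adaptor of kinesin-1 in axons, rose by 1.17 ± 0.12 to 6.80 ± 0.24 with cisplatin, against 5.63 ± 0.15 in the controls (SD, n = 4 each; adjusted p = 0.000142), while the related Fez2 was at -0.04 ± 0.10. Hap1, a linker to motors in neurons, rose by 0.22 ± 0.06 (adjusted p = 0.0370) and Dennd4a changed by -0.25 ± 0.07 (adjusted p = 0.0272). Of the neuronal markers Neurod1 rose by 0.96 and Rbfox3 by 0.52, with Map2 and Snap25 below background. Of all 9 measured, 6 had negative and 3 positive changes, with a median of -0.03. The bright markers Stmn2 (-0.07) and Nefl (-0.21) did not pass. The part of neuronal markers in the changes of these adaptors was not tested. The light chain genes Klc1, Klc3 and Klc4 were at -0.07 ± 0.11, -0.09 ± 0.11 and 0.12 ± 0.08.

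Of 23 genes of cytoplasmic dynein and dynactin, the motor that runs opposite to most kinesins, 2 rose and none fell: the light intermediate chain gene Dync1li1 at 0.37 ± 0.06 (adjusted p = 0.00269) and the dynein regulator Ndel1 at 0.31 ± 0.05 (adjusted p = 0.00279). Of 14 tubulins 2 rose, Tubb6 at 0.43 ± 0.09 and Tube1 at 0.22 ± 0.06, and Tuba1c changed by -0.25 ± 0.06. The dynein and tubulin counts of higher genes were also near the 11.6% of all genes. The medians of the adaptor, dynein and tubulin lists were 0.01, 0.05 and 0.01, beside 0.01 over all genes.

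The scale of the arrays bears on small changes. When every array was centred on the median of the genes tested, each change became 0.13 lower and the median of all genes -0.12. After it 20 of 39 members were lower and 1 higher (Kif18b), where 23.0% of all genes were lower and 6.36% higher. The mitotic count became 7 of 8 with Kif2c, and the transport count 7 of 15 lower, all of them Kif5b or members over 100 kb. Kif3b kept its sign but not its call. Kif15, Kif17, Kif5a, Kif3a, Kif21a and Kif26a turned from positive to negative, and none of these passed with or without centring.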

How the data were processed

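The deposited table gives 1 log2 expression value per probe set and array, made by the authors with RMA and analysed with limma per the submitters' processing notes, which name no version. Per the labels' protocols, mRNA was labelled from its 3′ end. Probe sets with a single gene in the platform annotation (28898 of 45141) were used, with symbols updated through RefSeq (GRCm38.p6, 16937 of 17098 genes found). A gene counts as above background if either group mean reached 3.10. The groups were compared in limma 3.58.1 (R 4.3.3) with group as the only term, Benjamini-Hochberg adjustment over 17098 genes and a threshold of 0.05. Dim genes were kept. The median SE of a log2 change was 0.08, set by 4 arrays per group. In simulated data of 17098 genes, 200 of them changed, 98 of 100 changes of 1 and 64 of 100 changes of 0.5 on the log2 scale were recovered. There were 9 false calls. In the real data 3303 genes passed, far more than were changed here, so these shares do not carry over to the real fit.

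Members, classes and partner lists were chosen with earlier results of these data known. Array values are given for the 8 mitotic kinesins, every called member and, chosen after its values were seen, Kif5b. Of each partner list the 4 called genes of smallest p are named, besides Cenpe and Kifap3, and a few that did not pass were chosen after their values were seen. Kifc1, Kifc5b and Kif19a, for which the annotation used lists no such probe set, were not analysed here. Alternatives covered the probe set, dim genes, centring, normalization, the variance model, the threshold, a replicate block, gene length and each array left out. Plots used matplotlib 3.10.9 (Python 3.11.15).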

Additional observations from a re-analysis of the deposited data

Results flagged for a closer look

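In the 78 groups of 4 arrays checked, 2 for each kinesin gene, 1 value stood apart from the rest of its group by more than Dixon's limit for 4 values, with a gap of 0.973 of the range. It was Kif17 on the array of cisplatin replicate 5, at 3.70, where the other 3 cisplatin arrays read 3.22 to 3.23. Chance flags about 1 in 20 groups. Kif17, a transport motor of cilia and dendrites, lies close to the array background of 3.10.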

How the results depend on the processing

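Of 722 values of single kinesin genes under the alternatives, 673 stayed on their side of the threshold (35 of these changed sign with neither value passing), 31 newly passed, 18 no longer passed and none reversed a call. Of the further probe sets, added after the data were seen, 1 of Kif3b was opposite in sign to the used one, at -0.045 without passing. The decreases of Kif4, Kif11, Kif16b, Kif18a, Kif20b and Kif22 and the increase of Kif18b passed under every alternative that could be run for them. Mitotic kinesins stayed at 6 or 7 lower and 0 higher under every alternative but 2: adjusted p under 0.01 (4 lower) and no genes over 100 kb (5 lower, Kif4 being left out). The ordinary t statistic gave 6 with Kif2c in and Kif23 out. At adjusted p under 0.01, 6 kinesins were lower and 1 higher, with 1 transport kinesin and 1 other (here any outside the mitotic and transport lists) lower, 0 transport kinesins higher, and 1113 genes higher and 742 lower in all.

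Centring gave 20 kinesins lower and 1 higher, 7 transport kinesins lower and 0 higher, 6 others lower, medians of -0.49 (mitotic) and -0.15 (transport), and 1087 higher and 3925 lower genes in all. Quantile normalization again gave 1 kinesin higher, 4 transport kinesins lower and 0 higher, and a transport median of -0.11. It gave 1575 genes higher and 1711 lower in all, against 1989 and 1314 in the main fit. The most variable probe set gave 2 transport kinesins higher (all genes 1858 higher, 1255 lower). The mean of probe sets gave 4 transport kinesins and 1 other lower (all genes 1932 higher, 1293 lower) and a mitotic median of -0.26. Without dim genes 2 others were higher (all genes 2264 higher, 1491 lower) and the mitotic median was -0.42. The ordinary t statistic left 1 other lower (all genes 1627 higher, 1153 lower). Without genes over 100 kb no transport kinesin was lower (0), the medians were -0.29 (mitotic) and 0.11 (transport), and 728 genes were lower in all, fewer genes being tested. Apart from centring, quantile normalization and the left-out genes, whose construction shifts or drops values, the cause was not tested.

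With 1 array left out, 1 to 3 transport kinesins and 1 to 3 others were lower, 1 or 2 others higher, and the transport median ran from -0.12 to 0.023, so its sign is not settled. In these fits 1580 to 1871 genes were higher and 1037 to 1246 lower in all. With a replicate block, 11 kinesins were lower and 2 higher (all genes 1336 lower, 2111 higher), and Kif5c passed (adjusted p = 0.0297). Arrays of the same number deviated together at correlations of 0.06 to 0.20, and 7 of 8 arrays correlated best with their own number, so the pairing is a hint from the data. The number of arrays and the 9 kinesins below background limit what could be seen.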
